A study of Mus musculus with 7 samples.

Results

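Leukocytes hold on to vessel walls and marrow matrix through a small set of surface adhesion receptors, and 9 of their genes were followed here in mouse bone marrow: Itgam, Itgal and Itgb2, Itga4, Itgb1, Itgb7 and Itga6, Selplg, and Cd44. They were chosen by symbol from the count table through GENCODE M21, and all 9 of them, out of 49315 genes in the table and 17920 tested, passed the filter on low counts. RNA was sequenced with poly(A) selection from bone marrow of mice fed chow and subjected to hindlimb ischemia, in which blood flow to a leg is cut off. The 3 control libraries, called flox here, have the genotype miR-181a2b2flox/flox (their titles say WT), and the 4 knockout libraries, called KO, have the genotype miR-181a2b2-/-, that is, they lack the microRNA cluster miR-181a2b2. Both groups had the same diet and the same ischemia, so no library here is from a mouse without ischemia. The age and sex of the mice, the Cre driver and the cells in which the cluster was deleted were not given in the sources used here. No label says whether each library is its own animal, and the p-values describe the spread between these samples alone, which may be technical.

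An integrin is a pair of an alpha and a beta subunit, and a subunit reaches the cell surface only with its partner. Itgb2 (CD18) pairs with Itgal to form LFA-1 and with Itgam to form Mac-1, the receptors with which leukocytes bind ICAM proteins. Itga4 pairs with Itgb1 to form VLA-4, which binds VCAM-1 and fibronectin in the marrow, or with Itgb7 to form a gut homing receptor, while Itga6 with Itgb1 binds laminin. Selplg encodes PSGL-1, the mucin that all selectins bind during rolling, and Cd44 encodes the main hyaluronan receptor.

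The deleted cluster encodes miR-181a and miR-181b, so their seed and any matching sites in these genes are given here. All 4 mature microRNAs of the family share the seed shown in capitals (bases 2 to 8; RefSeq, GRCm38.p6), and the first 2 are the products of the deleted cluster. The same mature sequences are also listed for Mir181a-1 and Mir181b-1.
mmu-miR-181a-5p: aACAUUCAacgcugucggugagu
mmu-miR-181b-5p: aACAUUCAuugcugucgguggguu
mmu-miR-181c-5p: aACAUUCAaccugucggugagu
mmu-miR-181d-5p: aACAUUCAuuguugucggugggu

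The letters TGAATGT, the reverse complement of the seed, were searched on the transcript strand, in the longest 3' UTR that GENCODE M21 annotates for a gene, and an A after them makes the longer 8mer site. They occurred in 2 of the 9 genes, Itgam and Itga4, with 1 site each. Over all 14275 tested genes with an annotated 3' UTR, 17.8% held a site. The Itgam site lies at chr7:128118309-128118315 (plus strand, GRCm38), in a 3' UTR of 1114 bases, and the Itga4 site at chr2:79331834-79331840 (plus strand) in a 3' UTR of 6508 bases. Capitals mark the matching letters.
Itgam 7mer-m8 site: tttactattaTGAATGTtgtcttttta
Itga4 8mer site: ggggagaagcTGAATGTAaaaagaccc
Among tested genes with a 3' UTR of similar length (from 0.75 times that length to that length divided by 0.75), 14.8% held a site at the length of Itgam and 58.5% at that of Itga4. A match is a description of the letters and not evidence of binding. The 2 genes with a site differed in direction between KO and flox, as given below: the Itgam level was lower in KO in every library, and the Itga4 mean was higher.

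Sequencing depth ran from 43110251 to 51688514 counts per library, and each of the 9 genes had at least 2447 counts in every library (the lowest was Itga6 in KO 4), so counting error is small beside the spread between libraries. The source label says bone marrow, whereas the protocol for RNA extraction names white adipose tissue. Marrow markers were abundant, with 13 neutrophil markers summing to 33621 CPM (counts divided by the TMM-scaled library size, so that libraries of different depth can be compared) or more in every library. The adipocyte genes Plin1 and Cidec, chosen after their values were seen, stood at no more than 1.20 CPM and Adipoq at 4.22 to 19.7 CPM. Flox 1 stood apart from the other flox libraries in several cell type markers: 12 B lineage markers summed to 85.9 CPM there against 531 and 829 CPM in flox 2 and flox 3, and 9 megakaryocyte and platelet markers to 998 CPM against 511 and 629 CPM. Values without a library are given below where leaving it out turned a direction or moved a value by over 1.5 times; this check was chosen after seeing the data for the genes outside the 9.

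No member passed the test between KO and flox. edgeR's quasi-likelihood test with Benjamini-Hochberg adjustment over all tested genes called 0 of 9 members at an adjusted p of 0.05, and 0.145% of all tested genes (0.0112% lower and 0.134% higher in KO). At an unadjusted p under 0.05, 4 of the 9 (Itgam, Cd44, Itgb2 and Itga6) were lower in KO and 0 higher, against 14.1% of tested genes in either direction, 8.17% lower and 5.89% higher. Without flox 1, Itga6 left this set and Itga4 entered it on the other side, which gave 3 lower (Itgam, Itgb2 and Cd44) and 1 higher, against 6.11% of tested genes lower and 6% higher. In 3 of the 9 (Itgam, Itgb2 and Cd44) every KO library lay below every flox library, which held for 7.41% of tested genes, and in 0 of the 9 did every KO library lie above, which held for 6.22% (13.6% for both directions). By sign alone, 8 of 9 log2 fold changes (KO minus flox throughout) were negative and 1 positive, against 51.9% and 48.1% of tested genes. The background share depends on the scaling: 9295 of the 17920 tested genes were lower here, and 8379 to 8817 with the other scalings tried. The signs of the 9 were the same under each scaling. The median over the 9 was -0.17 and over all tested genes -0.01. Flox 2 was the highest library of Itgam, Itgb2, Cd44, Itgal, Selplg and Itgb7, and the counts above were not taken without it. Without flox 2 the log2 fold change was -0.26 for Itgam, -0.17 for Cd44 and -0.13 for Itgb2. Itgal (-0.01) and Selplg (-0.04) also moved toward 0, and Itgb7 turned to 0.014. Itga6 (-0.47) and Itgb1 (-0.22) moved further below 0, and Itga4 stayed positive (0.11). These genes are not independent of each other, since several share cells and partners.

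Of the 9 genes, Itgam had the lowest p and Cd44 the next lowest. Itgam (chr7:128062640-128118491, plus strand, GRCm38, as are all positions here), the alpha subunit of Mac-1 and a standard myeloid surface marker, stood at 339.9, 396 and 317 CPM in flox 1 to 3 and at 256, 299.9, 262 and 268 CPM in KO 1 to 4. All KO libraries were below all flox libraries, with KO 2 nearest to flox 3. Mean Itgam was 351 ± 40.6 CPM (SD, n = 3) for flox against 272 ± 19.6 CPM (SD, n = 4) for KO. This is 22.7% lower, or -0.37 on the log2 scale (SE 0.09, 95% interval -0.58 to -0.16), with an edgeR adjusted p of 0.186. It ranked at place 254 of 17920 by p. DESeq2 gave Itgam an adjusted p of 0.0487 at a log2 fold change of -0.36, and the adjusted p over all alternatives ran from 0.0487 to 0.372.

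Itgb2 (chr10:77530252-77565708, plus strand), the common beta subunit, was the most abundant of the 9. Its level was 909, 1006 and 855 CPM in flox 1 to 3 and 757, 837, 843 and 758 CPM in KO 1 to 4. The groups did not overlap, but KO 3 and flox 3 were close together. Its log2 fold change of -0.21 (SE 0.09, 95% interval -0.40 to -0.02) had an edgeR adjusted p of 0.325, and without flox 2, the highest library, it was -0.13. Itgal (chr7:127296260-127335138, plus strand), the alpha subunit of LFA-1, which lymphocytes carry as well as myeloid cells, had 300.1, 313 and 264 CPM in flox and 293, 273, 275 and 262 CPM in KO. These ranges overlapped, and only KO 4 lay below the lowest flox library. Its log2 fold change was -0.08 (SE 0.08, 95% interval -0.26 to 0.09, adjusted p = 0.701). It was -0.01 without flox 2 and -0.15 without flox 3.

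**Figure D1:**
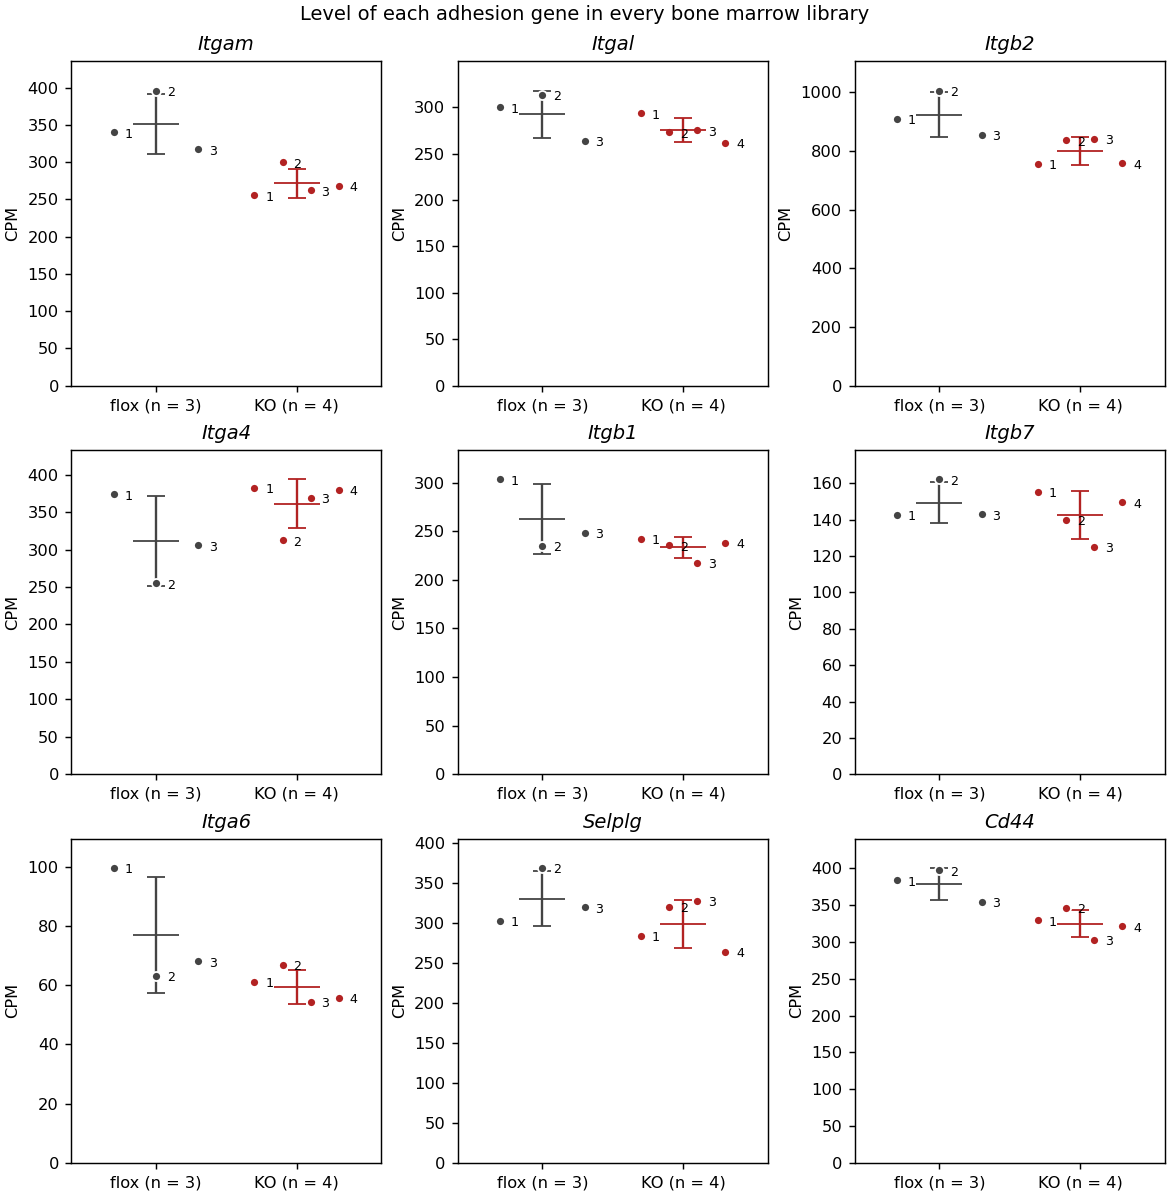
CPM (on TMM-scaled library sizes) of the 9 adhesion genes in each library, in flox (grey, n = 3) and KO (red, n = 4). Points are libraries with their replicate number, horizontal bars group means and whiskers SD. Itgam, Itgb2 and Cd44 show no overlap between groups, while flox 1 is the highest library of Itga6 (99.6 CPM) and of Itgb1 (303 CPM).

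Selplg and Cd44, the rolling and hyaluronan receptors, were lower on average in KO. Cd44 (chr2:102811141-102901665, minus strand) was read at 384, 397 and 354 CPM in flox and at 329, 346, 302 and 321 CPM in KO. No KO library reached the lowest flox library. Mean Cd44 was 378 ± 22.0 CPM (SD, n = 3) for flox against 325 ± 18.2 CPM (SD, n = 4) for KO, a log2 fold change of -0.22 (SE 0.08, 95% interval -0.39 to -0.05) with an adjusted p of 0.265 by edgeR. Selplg (chr5:113818536-113832644, minus strand) stood at 303, 369 and 319 CPM in flox and at 284, 320.1, 328 and 264 CPM in KO. Here KO 2 and KO 3 lay within the flox range. Its log2 fold change was -0.14 (SE 0.10, 95% interval -0.37 to 0.08, adjusted p = 0.574). It was -0.04 without flox 2 and -0.09 without KO 4.

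Itga4 (chr2:79255426-79333123, plus strand), the alpha subunit of VLA-4 that holds progenitors to marrow stroma, was the 1 member with a positive log2 fold change. It was read at 374, 255 and 306 CPM in flox and at 383, 313, 369 and 379.5 CPM in KO. Only KO 1 and KO 4 exceeded the highest flox library, so the groups overlapped. Its log2 fold change of 0.21 (SE 0.13, 95% interval -0.07 to 0.50) had an edgeR adjusted p of 0.501. It was 0.36 without flox 1 and 0.11 without flox 2.

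Both of its beta partners had negative values. Itgb1 (chr8:128685654-128733200, plus strand), the beta subunit shared by many matrix receptors, stood at 303, 235 and 248 CPM in flox and at 242, 236, 218 and 238 CPM in KO. Flox 1 was the highest library, and without it the log2 fold change moved from -0.17 (SE 0.09, 95% interval -0.38 to 0.04, adjusted p = 0.456) to -0.05. Itgb7 (chr15:102215995-102231944, minus strand), whose pair with Itga4 binds MAdCAM-1, stood at 143, 162 and 143 CPM in flox and at 155, 139.8, 125 and 149.7 CPM in KO. The groups overlapped, with a log2 fold change of -0.07 (SE 0.09, 95% interval -0.27 to 0.13, adjusted p = 0.806). That value turned positive without flox 2 (0.014) and without KO 3 (0.0037), and was -0.10 without flox 1 and -0.11 without KO 1.

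Itga6 (chr2:71745616-71858416, plus strand), a laminin receptor subunit found on platelets and on stem cells, had the widest spread, with 1.83 times between its highest and lowest library. It was read at 99.6, 63.2 and 68.1 CPM in flox and at 61.2, 66.9, 54.4 and 55.7 CPM in KO. Flox 1 was far above the rest, and KO 2 lay above flox 2. Its log2 fold change of -0.37 (SE 0.15, 95% interval -0.72 to -0.02) had an edgeR adjusted p of 0.332, and it was -0.15 without flox 1.

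**Figure D2:**
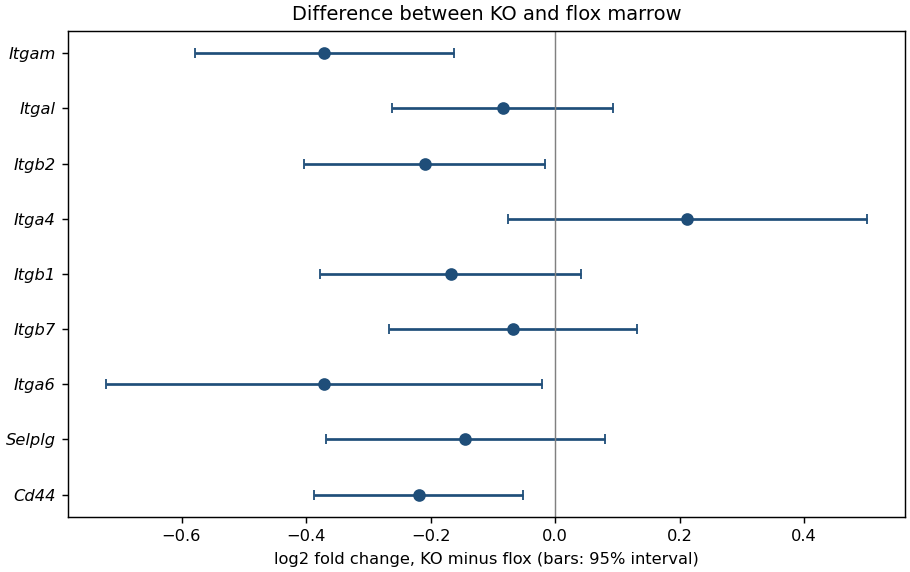
Log2 fold change of each gene, KO minus flox, from the edgeR fit over all tested genes, with bars for the 95% interval. The intervals of Itgam, Itgb2, Itga6 and Cd44 lie below 0 before adjustment for the number of genes tested, and Itga4 is the 1 gene to the right of 0.

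Levels can be set against each other only per length, so CPM were divided by the merged exon length of each gene (CPM per kilobase). The mean level over all 7 libraries was 279 CPM per kilobase for Itgb2, 73.1 for Selplg, 60.8 for Itgam, 60.2 for Itgb1, 52.5 for Itgb7, 51.3 for Cd44, 43.0 for Itgal, 24.3 for Itga4 and 7.43 for Itga6. Itgb2 exceeded Selplg, Itgal exceeded Itga4 and Itga4 exceeded Itga6 in all 7 libraries without overlap of their ranges. Ranges of all other neighbours overlapped: Selplg was above Itgam and Cd44 above Itgal in 7 of 7 libraries, and Itgb1 above Itgb7 in 6 of 7. Itgam and Itgb1 could not be ordered (Itgam higher in 3 of 7 libraries), nor could Itgb7 and Cd44 (Itgb7 higher in 3 of 7). The places of Itgam hold only for its full exon length, as given next.

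The value of Itgam on this scale depends on how reads of overlapping genes were counted, a setting the sources used here do not state. The predicted gene Gm49368, on the same strand, shares 3450 of the 5024 exon bases of Itgam and has its own row, with 82 to 155 counts per library. Itgam had 11788 to 19326 counts, so by these exons shared reads were not counted in full for both genes. If reads in shared exons were left unassigned, only 1574 exon bases of Itgam could collect counts, and its level would be 194 CPM per kilobase in place of 60.8. Its mean would then stand between those of Itgb2 and Selplg in the order above. Itga4 shares 1124 exon bases with Cerkl on the opposite strand, which had 77 to 164 counts. With the longest coding transcript as the length, Selplg moved to 168 CPM per kilobase, Itga6 to 15.5 and Itga4 to 34.8. Cd44 moved to 61.9 and Itgal to 54.2, while Itgb7 stood at 54.2. In the order above only Cd44 and Itgb7 changed places, and Itgal came level with Itgb7.

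For subunits that share a partner, the ratio of their counts within a library was taken, which does not depend on the scaling of libraries. Counts were not divided by gene length, so only the difference between groups is read. The ratios compare RNA over the whole marrow sample, in which cell types are mixed. The balance of subunits within a cell and the part of cell mix in these ratios were not tested. Itgal and Itgam both pair with Itgb2, and the ratio of Itgal to Itgam was 0.883, 0.790 and 0.831 in flox and 1.15, 0.909, 1.05 and 0.975 in KO. Every KO library was above every flox library. The log2 difference was 0.29, with p = 0.0571 by exact permutation (two-sided, 35 arrangements, adjusted over the 4 ratios 0.0762), and the smallest p that 3 against 4 libraries allow is 0.0286.

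Itga6 and Itga4 both pair with Itgb1, but they went with different blood cell markers from library to library, as given below. Their ratio was 0.266, 0.248 and 0.223 in flox and 0.160, 0.214, 0.147 and 0.147 in KO, again without overlap. The log2 difference was -0.57 (exact permutation p = 0.0571, adjusted 0.0762), and without flox 1 it was -0.51, so this difference did not rest on the library with the highest Itga6. Itgam to its own partner Itgb2 gave 0.374, 0.394 and 0.371 in flox and 0.338, 0.358, 0.311 and 0.354 in KO. All KO ratios were below all flox ratios, by a mean of -0.16 on the log2 scale (exact permutation p = 0.0571, adjusted 0.0762). Itgb7 to Itgb1 gave 0.471, 0.690 and 0.575 in flox and 0.642, 0.594, 0.575 and 0.628 in KO, which overlapped (log2 difference 0.09, exact permutation p = 0.6), and the difference was -0.049 without flox 1. None of the 4 ratios passed at 0.05.

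**Figure D3:**
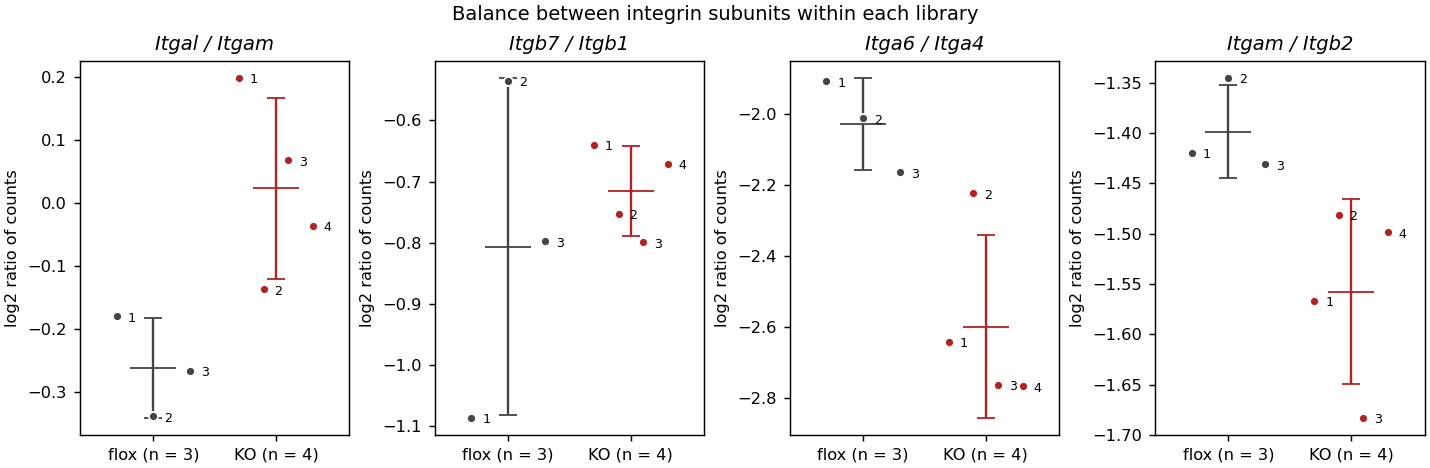
Log2 ratio of counts of 2 subunits within each library, flox (grey, n = 3) and KO (red, n = 4). Points are libraries with their replicate number, horizontal bars group means and whiskers SD, and vertical axes differ between panels and do not start at 0. Groups are apart for Itgal to Itgam, Itga6 to Itga4 and Itgam to Itgb2, and overlap for Itgb7 to Itgb1, where flox 1 and flox 2 are the extremes.

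The 9 genes fell into groups that moved with different blood cell markers from library to library. In bulk marrow, fewer cells of a type and less RNA per cell cannot be told apart. The correlations that follow are Pearson's r over the 7 libraries between log2 CPM of the gene and the log2 summed CPM of a marker list, given as a description. The points share libraries and depth, and 126 such values were computed. A sum mostly follows its most abundant genes. In the neutrophil list these were S100a9, Ngp, S100a8 and Ltf (flox means 12989, 9477, 9323 and 7749 CPM). In the erythroid list they were Hbb-bs and Hba-a1 (20449 and 11112 CPM).

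Itgb2 (r = 0.98), Itgam (0.95) and Selplg (0.85) were highest where neutrophil markers were highest, and with group means removed these values were 0.95, 0.94 and 0.81. All 13 neutrophil markers were lower in KO (median -0.38 on the log2 scale, 0 called). Their sum ran from 42231 to 60258 CPM in flox and from 33621 to 42612 CPM in KO. Cd44 followed monocyte and macrophage markers (r = 0.93, and 0.91 with group means removed), of which 10 of 10 were lower in KO, summing to 1616 to 2067 CPM in flox and 1303 to 1639 CPM in KO. The part of neutrophil and monocyte marker levels in the differences of Itgam, Itgb2, Selplg and Cd44 was not tested.

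Itga6 and Itgb1 went with the megakaryocyte and platelet markers, at r = 0.98 and 0.90 (0.97 and 0.85 with group means removed). All 9 of these markers were lower in KO, with sums of 511 to 998 CPM in flox and 392 to 579 CPM in KO. The same 2 genes ran opposite to the 12 B lineage markers (r = -0.92 and -0.90, or -0.86 and -0.85 with group means removed), all higher in KO, with sums of 85.9 to 829 CPM in flox and 877 to 1124 CPM in KO. Endothelial markers (6 lower and 2 higher in KO) had r = 0.81 with Itgb1 and 0.75 with Itga6 (0.80 and 0.73 with group means removed). Marrow stroma and bone markers had r = 0.76 with Itgb1 and 0.72 with Itga6 (0.62 and 0.46 with group means removed). Flox 1 is the extreme library of the megakaryocyte and B lineage lists. It also had the highest endothelial sum (138 CPM) and the highest stroma and bone sum (1019 CPM). The part of any of these lists in the differences of Itga6 and Itgb1 was not tested.

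Itga4 ran opposite to neutrophil markers (r = -0.84, and -0.77 with group means removed) and with erythroid markers (r = 0.86, and 0.80 with group means removed). With group means removed, Itga4 had a higher r with endothelial markers (0.83) and with marrow stroma and bone markers (0.82). Over all 7 libraries these 2 lists gave 0.46 and -0.02. The 8 erythroid markers with a row (the symbol Ahsp had none) were all higher in KO, summing to 29193 to 49363 CPM in flox and 45851 to 60659 CPM in KO. Flox 2 had the lowest erythroid sum, the highest neutrophil sum and the lowest Itga4. Itgal (r = 0.74) and Itgb7 (r = 0.79) had their highest r with the monocyte and macrophage markers (0.66 and 0.82 with group means removed). Markers of intestinal epithelium, which also expresses some integrins, were higher in KO in 12 of 12, with 11 called by edgeR and sums of 47.5 to 50.3 CPM in flox and 108 to 118 CPM in KO. NK cell markers, 8 of 8 higher in KO (sums of 49.2 to 50.6 CPM in flox and 57.9 to 70.6 CPM in KO), had r = -0.86 with Itgb2 and -0.82 with Itgam, but -0.58 and -0.20 with group means removed, so for Itgam most of this value lay between the groups. Marrow stroma and bone markers were lower in KO in 10 of 10, with sums of 604 to 1019 CPM in flox and 391 to 559 CPM in KO. The part of these lists in any result here was not tested. No marker of any cell type list was at 0 over all libraries.

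**Figure D4:**
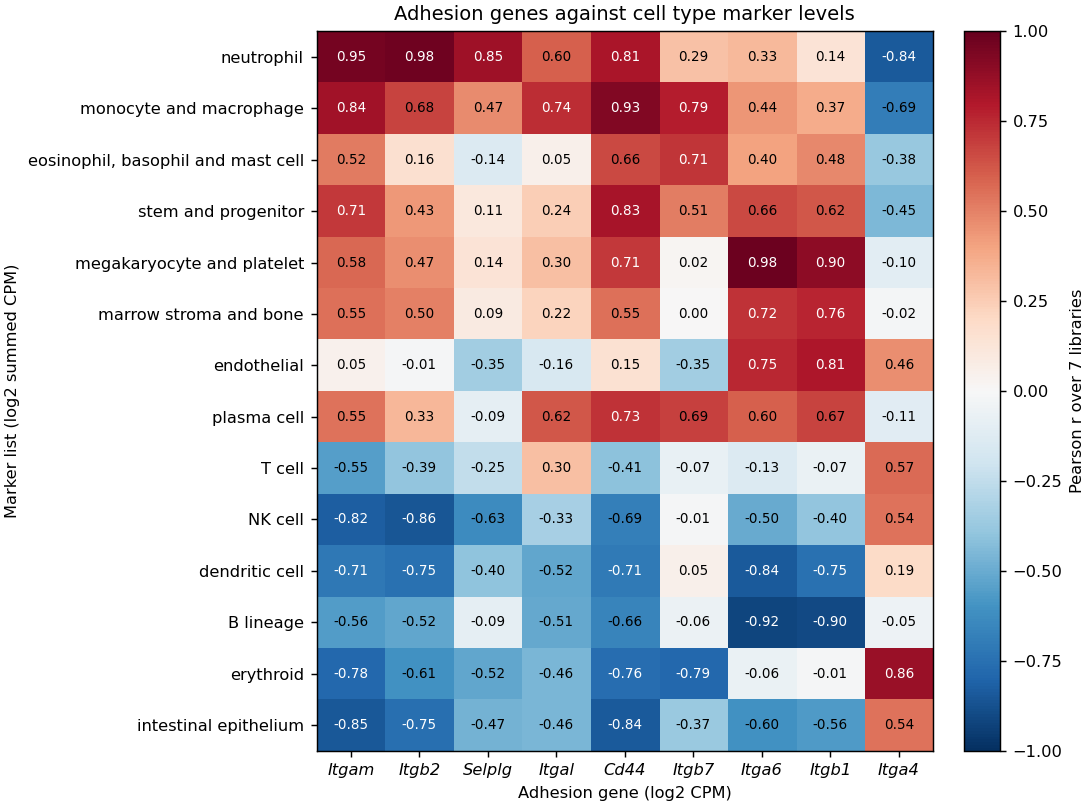
Pearson's r over 7 libraries between log2 CPM of each adhesion gene (columns) and log2 summed CPM of each cell type marker list (rows), red for positive and blue for negative values. Itgam, Itgb2 and Selplg are highest in the neutrophil row, Cd44 in the monocyte row, Itga6 and Itgb1 in the megakaryocyte row and Itga4 in the erythroid row.

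**Figure D5:**
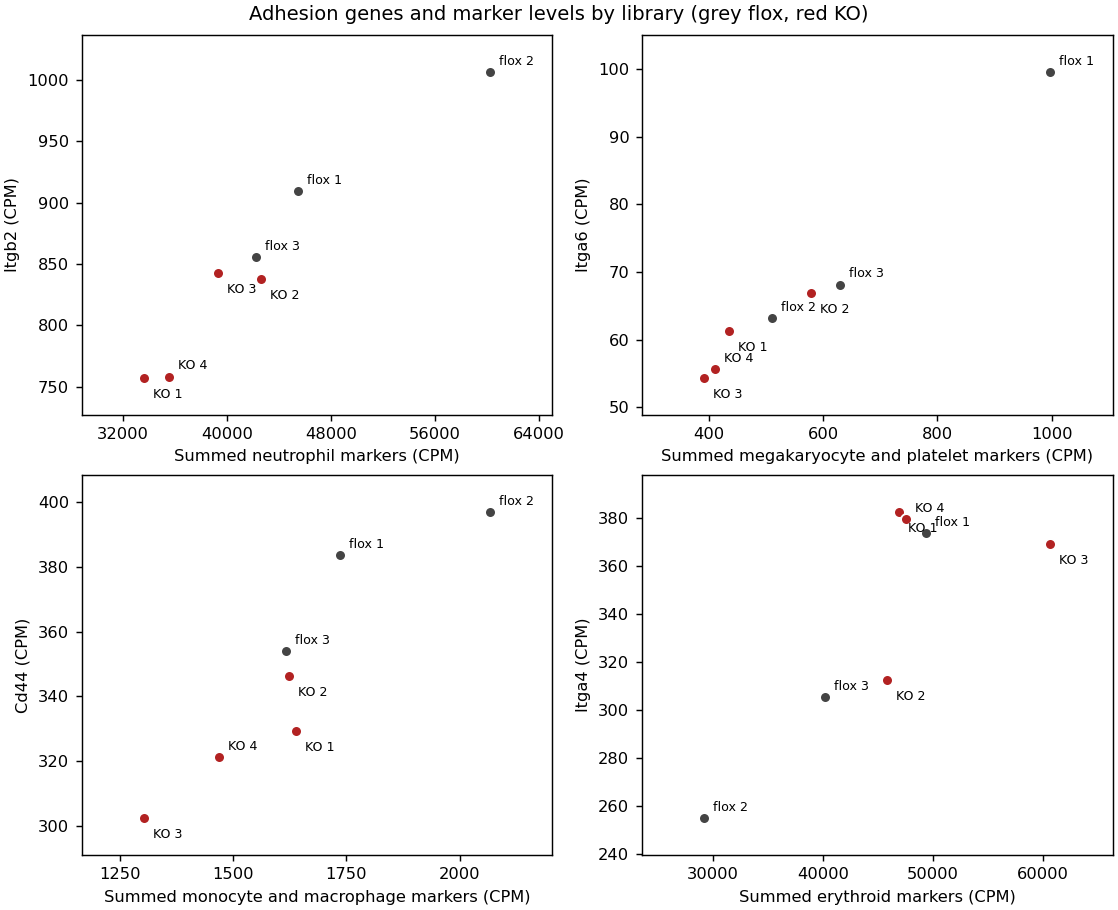
CPM of 4 adhesion genes against the summed CPM of a marker list, 1 point per library (grey flox, red KO), on linear axes that do not start at 0. The list shown is the one with the highest r (log2 values, group means not removed) for that gene over all 7 libraries. Flox 2 is at the top right for Itgb2 and Cd44 and at the bottom left for Itga4, and flox 1 is the far right point for Itga6.

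Among the 9 themselves, Itgb1 and Itga6 (r = 0.94), Itgam and Cd44 (0.94) and Itgam and Itgb2 (0.93) were most alike, and Itga4 and Selplg (-0.82) and Itga4 and Itgam (-0.79) most opposed. Itga4 and Itgb1, the subunits of VLA-4, had r = 0.21 over all 7 libraries and 0.76 with group means removed. Itgal and Itgb2, the subunits of LFA-1, had r = 0.64.

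A search of 9580 tested genes (those with a mean log2 CPM from 3 upward) gave the 3 whose log2 CPM was most like each member over the 7 libraries by Pearson's r. For Itgam they were Gstm1, Pafah2 and Klhl36 (r = 0.99 each), and for Itgb2 Atp6v1e1, Alox5 and Sun2 (0.996, 0.995 and 0.991). For Itga6 they were Cd226, Pf4 and Ppbp (0.98 each), of which Pf4 and Ppbp encode platelet chemokines and stand in the megakaryocyte list above. Cd44 was matched by Hibch, Dtx4 and Lamp2 (0.99 each), Selplg by Arhgap45, Ifitm1 and Ppm1m (0.98 to 0.99) and Itgal by Mapre2, Lrrk2 and Zfp384 (0.97 to 0.99). Itga4 was matched by Kmt2c, Usf3 and Rsad2 (0.98 to 0.99), Itgb1 by Clca3a1, Nedd4 and Fmnl2 (0.97 to 0.98) and Itgb7 by Isy1, Rasa4 and Ifi211 (0.95 to 0.96).

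Starts of transcription could be shown for 5 of the 9 genes that matched the RefSeq promoter table (GRCm38.p6). The 250 bases before the start are printed for Itgam and Cd44, which lay apart between groups. Capitals mark GAGGAA or its reverse complement TTCCTC, letters of a purine-rich box that ETS family factors such as PU.1 can bind, and both strands were searched.
Itgam, chr7:128062390-128062639, plus strand: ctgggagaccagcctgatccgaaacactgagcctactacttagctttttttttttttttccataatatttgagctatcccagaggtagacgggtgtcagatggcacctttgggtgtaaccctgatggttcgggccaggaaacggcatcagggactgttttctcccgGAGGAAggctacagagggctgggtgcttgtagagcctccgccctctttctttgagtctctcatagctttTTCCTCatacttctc
Cd44, chr2:102901666-102901915, minus strand: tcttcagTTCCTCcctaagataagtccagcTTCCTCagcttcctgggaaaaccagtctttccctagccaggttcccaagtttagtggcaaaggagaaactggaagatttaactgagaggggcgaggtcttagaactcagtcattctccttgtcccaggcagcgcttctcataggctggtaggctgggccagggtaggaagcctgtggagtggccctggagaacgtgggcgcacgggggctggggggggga
Each of the 2 windows held 2 matches, Itgb1 held 1, and Itga4 and Itgb7 held 0. Of all 32851 promoter windows, 23.3% held at least 1 match. The GC box CCGCCC, searched in the same way, occurred in Itgam, Itga4 and Itgb1 and in 32.7% of all windows. In Itgam the matches begin 84 and 15 bases before the start, and in Cd44 243 and 220 bases before it. The match is a description and not a binding site.

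The rest of the integrin family was read from a list of 27 integrin subunit genes that includes members. Of these 27, all tested, 16 were lower and 11 higher in KO (median -0.07 on the log2 scale, 0 called). At an unadjusted p under 0.05, 6 were lower and 0 higher, against 8.17% and 5.89% of all tested genes. Without flox 1 these counts were 4 and 2, against 6.11% and 6%, and the median of the list was -0.05. Outside the 9, the lowest p belonged to the platelet fibrinogen receptor subunits: mean Itgb3 was 221 ± 61.8 CPM (SD, n = 3) for flox against 146 ± 20.6 CPM (SD, n = 4) for KO, a log2 fold change of -0.59 (edgeR adjusted p = 0.244). Itga2b, which is also in the megakaryocyte list, stood at 155 ± 46.8 and 99.7 ± 17.9 CPM (-0.63, adjusted p = 0.274). Without flox 1, the library with the highest megakaryocyte markers, Itgb3 was at -0.36 and Itga2b at -0.39. Itgb2l, a paralogue of Itgb2, stood at 401 ± 56.7 and 321 ± 37.6 CPM (-0.32, adjusted p = 0.282), and at -0.18 on the log2 scale without flox 2. The log2 fold change of the remaining alpha partners of Itgb2 was 0.08 (SE 0.10) for Itgax and 0.25 (SE 0.38) for Itgad, neither called. Itgax ranged from 0.02 to 0.14 and Itgad from -0.04 to 0.86 when single libraries were left out. Itga3 was higher in every KO library but near 1 CPM (0.45, adjusted p = 0.362).

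Genes that switch integrins on or carry their signals numbered 34, all tested, and 28 were lower in KO, with a median of -0.22 and 0 called (15 lower and 2 higher at an unadjusted p under 0.05, against 8.17% and 5.89% of all tested genes). Without flox 1 these 2 counts were 10 and 0, against 6.11% and 6% of all tested genes. In 11 of the 34 every KO library lay below every flox library and in 2, Rapgef1 and Syk (named after their values were seen), every KO library lay above, against 7.41% and 6.22% of all tested genes. Rasgrp2, the exchange factor that activates Rap1, had means of 216 ± 15.7 CPM for flox and 177 ± 10.3 CPM for KO (log2 fold change -0.28, edgeR adjusted p = 0.208). Rap1b, the small GTPase itself, gave -0.27 (adjusted p = 0.231), and the adhesion plaque genes Vcl and Zyx gave -0.37 (0.220) and -0.30 (0.233). These 4 named genes (Rasgrp2, Rap1b, Vcl and Zyx) were picked for the lowest p in this list. That their groups did not overlap follows largely from this choice and is no further support.

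Of 24 ligand and matrix genes, 18 were tested, 13 of them lower in KO, with a median of -0.19 and 0 called. At an unadjusted p under 0.05, 5 of the 18 were lower and 0 higher, against 8.17% and 5.89% of all tested genes. Without flox 1 these counts were 2 and 0, against 6.11% and 6%. The median was -0.07 without flox 1. Icam4, Madcam1, Fga, Fgb, Fgg and Has1 had too few counts. Those with the lowest p were Lama4, a laminin chain of vessel walls (log2 fold change -0.95, edgeR adjusted p = 0.220), and C3, whose cleaved form Mac-1 binds (1141 ± 198 and 917 ± 19.1 CPM, -0.32, adjusted p = 0.268). C3 was at -0.16 without flox 2. Spp1, which encodes osteopontin, a ligand of CD44 and integrins, gave -0.90 (adjusted p = 0.308), and the hyaluronan synthase gene Has2 -0.61 (0.309). Lama4 and Has2 were low, with means of 2.13 and 1.02 CPM for flox and 1.10 and 0.67 CPM for KO.

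All 22 genes of selectins and of the sugars that selectins need were tested, with 16 lower, a median of -0.09 and 0 called. At an unadjusted p under 0.05, 2 of the 22 were lower and 2 higher, near the 8.17% and 5.89% of all tested genes. Without flox 1 these counts were 1 and 0, against 6.11% and 6%. Selp, the P-selectin of platelets and endothelium and the main partner of PSGL-1, had means of 19.4 ± 5.05 CPM for flox and 11.3 ± 1.55 CPM for KO (log2 fold change -0.78, edgeR adjusted p = 0.152). The glycosyltransferase gene C1galt1 gave 0.28 (adjusted p = 0.281). The tyrosine sulfotransferase genes gave 0.28 for Tpst1 (0.288) and -0.18 for Tpst2 (0.326).

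All 22 partners and proteases of CD44 were tested, with 16 lower, a median of -0.06 and 0 called. At an unadjusted p under 0.05, 3 of the 22 were lower and 3 higher, against 8.17% and 5.89% of all tested genes. Without flox 1 these counts were 2 and 3, against 6.11% and 6%, and the median of the list was -0.02. Esrp1, an epithelial splicing factor that acts on Cd44 transcripts, had means of 0.152 ± 0.0456 CPM for flox and 0.512 ± 0.0744 CPM for KO (log2 fold change 1.74, edgeR adjusted p = 0.111). It is also an epithelial gene, and the intestinal markers above were higher in the same libraries. The part of epithelial markers in the difference of Esrp1 was not tested. The effect of Esrp1 on Cd44 transcripts cannot be read from counts per gene. Cd9, a tetraspanin that associates with integrins, gave -0.41 (adjusted p = 0.131), the protease gene Mmp9 -0.30 (0.269) and Cd74 0.48 (0.284), which was 0.28 without flox 1.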

How the data were processed

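RNA of 7 bone marrow libraries was read from 1 table of raw counts per Ensembl gene, deposited by the authors. Per the submitters' processing notes, the tools were Trimmomatic 0.36, STAR 2.5.2b, Subread 1.5.2 and featureCounts, with the build GRCm38. Annotation release, strand setting and the treatment of multi-mapping reads were not given in the sources used here. Columns were matched to samples by library code, and 0 columns were left unmapped. Of 49315 gene IDs, 49056 matched GENCODE M21. No replicate pair agreed within sampling noise (chi-square per degree of freedom from 20.8 to 99.9).

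R 4.3.3 with edgeR 4.0.16 was used: filterByExpr (minimum count 10), TMM, robust glmQLFit and glmQLFTest, two-sided, Benjamini-Hochberg over 17920 genes, threshold 0.05. The code was tested on simulated data. Log2 CPM used a prior count of 2. Alternatives were DESeq2 1.42.0, limma 3.58.1 (voom), other scalings, filters and thresholds, a replicate block, and leaving out each library. The 9 genes, the gene lists and the tests were chosen with earlier results of these data known. Named genes are all 9, up to 4 others per pathway list by lowest p, and the 3 most similar genes per member; Itgax, Itgad, Rapgef1 and Syk are named beyond that rule. Marker lists are described by counts and sums. Protein sequences were not analysed here.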

Additional observations from a re-analysis of the deposited data

How the results depend on the processing

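The count of members called was 0 under every alternative except DESeq2, which called 1 (Itgam). The count over all genes, 26 in the edgeR test, was 392 with DESeq2, 13 with limma-voom, 112 with every gene that had a count, 16 without robust fitting and 66 at an adjusted p of 0.1. Leaving out 1 library gave 2 to 14 genes. The cause of these changes was not tested. The direction of 8 members held in all 16 alternatives. Itgb7 turned to 0.014 without flox 2 and to 0.0037 without KO 3, and its values without 1 library ran from -0.11 to 0.01. The log2 ratio of Itgb7 to Itgb1 was -0.049 without flox 1 and 0.23 without flox 2. The other 3 ratios kept their direction without each library, with too few arrangements left for a p of 0.05. With the replicate block 4 genes and 0 members were called, and the Itgam log2 fold change was -0.36. Deviations from the group means correlated little between libraries with the same number (r = -0.02, 0.08 and 0.02). The closest KO library was KO 3 for flox 1, KO 2 for flox 2 and KO 3 for flox 3. With so few libraries this check cannot exclude a pairing by number. Over the scalings tried, the median log2 fold change of all genes ran from -0.008 to 0.014. With at least 2447 counts per library for each member, depth limits them little.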
